A study of Mus musculus with 18 samples.

Results

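The 7 genes examined here belong to the uptake and recycling of glutamate, GABA and glycine, and were followed through the differentiation of mouse neural stem cells into astrocytes, without and with tumour necrosis factor (TNF). The set was chosen by function: Slc1a2 and Slc1a3 for glutamate uptake, Glul and Glud1 for glutamine and glutamate metabolism, Slc38a3 for glutamine transport, Slc6a11 for GABA uptake and Slc6a9 for glycine uptake. All 7 were found among the 54838 genes of the count table, and all 7 passed the filter on low counts that left 20067 genes for testing.

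RNA was sequenced from 18 libraries in 6 conditions of 3 replicates. The cells came from the ventricular zone of wild type C57BL/6J embryos at embryonic day 14. Proliferating cells grew as neurospheres (NSPs) with B27 and with EGF at 20 ng/ml, without TNF. Differentiating cells grew on poly-L-ornithine in medium with 10% fetal bovine serum, which replaced the EGF medium. They were taken after 24 h, 72 h or 1 week without TNF, and after 24 h or 72 h with TNF at 50 ng/ml. There was no TNF library at 1 week. Each library is a whole primary culture that was not sorted, so fewer cells of a type and less RNA per cell cannot be told apart. The study's methods describe cells isolated from single brains and, for its data in general, independent biological experiments. The labels do not tie each library to an embryo or culture, and p-values measure the spread between these libraries.

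Astrocytes clear glutamate from the synapse through the sodium-driven carriers GLT1 (Slc1a2) and GLAST (Slc1a3). Glutamine synthetase (Glul) turns the glutamate into glutamine, which leaves the cell through carriers such as SNAT3 (Slc38a3) and is taken up by neurons to make glutamate and GABA again. Glutamate dehydrogenase (Glud1) feeds glutamate into the citric acid cycle, while GAT3 (Slc6a11) and GLYT1 (Slc6a9) take up GABA and glycine. GLAST is also present in radial glia and neural stem cells, and an antibody against it is in common use to isolate astrocytes.

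Total counts ranged from 12509693 to 22549627 per library (median 16794798). Nfkbia, a target of NF-kB that served as a check of the TNF labels, was higher with TNF at both times, by 2.44 at 24 h (SE 0.17, adjusted p = 6.87e-08) and by 2.80 at 72 h (SE 0.17, adjusted p = 1.2e-08, edgeR) on the log2 scale. The summed level of the 6 astrocyte markers (Gfap, Aqp4, Aldh1l1, Aldoc, Gja1 and S100b), in CPM (counts scaled to a common library size), was 1313 to 1964 in NSPs, 2410 to 2585 at 24 h, 3469 to 5492 at 72 h and 585 to 721 at 1 week, and all 6 markers fell between 72 h and 1 week. With TNF the replicates numbered 1 stood apart, with astrocyte marker sums of 3820 against 1660 and 1837 at 24 h, and of 2583 against 1129 and 1026 at 72 h. Acta2, the 1 measured gene of the mesenchymal list, was at 90.3 CPM in the first 24 h TNF library against 527 and 493 in the others, and at 49.2 against 186 and 202 at 72 h. Results that involve TNF are therefore given with and without these 2 TNF libraries where a call differs. NSP replicate 1, which enters every comparison with NSPs, also stood apart: its chi-square per degree of freedom was 52.8 and 46.1 against NSP replicates 2 and 3, which differed from each other by 4.08. Its Glud1 level was 639 CPM against 917 and 965, and its Slc6a9 level 102 CPM against 150 and 148. Without it 4 of the 7 genes were called against NSPs at 24 h, 4 at 72 h (6 with it), 5 at 1 week, 3 at 24 h with TNF (5 with it) and 5 at 72 h with TNF, and the calls lost are named with each gene. Of 6 microglia markers 4 had at most 15 counts in every library, and their sum did not exceed 3.88 CPM.

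Levels of different genes were compared as TPM, which corrects for library size and for the summed exon length. Slc1a3 was the most abundant of the 7 in every condition, at 1073 ± 123 TPM (SD, n = 3) in NSPs and 836 ± 97.7 TPM (n = 3) at 1 week. In NSPs it was followed by Glud1 (599 ± 129 TPM), Glul (484 ± 39.5), Slc6a11 (315 ± 36.7), Slc38a3 (122 ± 8.35), Slc1a2 (97.4 ± 3.68) and Slc6a9 (77.7 ± 15.9), and only Glud1 and Glul overlapped in their libraries among neighbours in this order. At 1 week the order was Slc1a3, Glul (507 ± 66 TPM), Glud1 (363 ± 41.6), Slc38a3 (157 ± 12.8), Slc1a2 (71.1 ± 10.5), Slc6a11 (20.9 ± 2.8) and Slc6a9 (20.3 ± 0.652). Slc6a11 had moved from the fourth place to the sixth, where its libraries overlapped those of Slc6a9. Glul and Glud1 had exchanged places, without overlap at 1 week and with overlap at 72 h with TNF, where Glul was at 512 ± 106 and Glud1 at 402 ± 78.3 TPM. Slc38a3 ranked above Slc1a2 in every condition without TNF and below it in both conditions with TNF, and the pair overlapped at 24 h only. This order rests on the length used: per longest transcript Slc1a2 and Slc38a3 were at 67.2 and 67.1 TPM at 24 h with TNF, and Slc6a9 (24.5 TPM) was above Slc6a11 (20.8 TPM) at 1 week. In NSPs Slc6a9 (92 TPM) was then above Slc1a2 (88.3 TPM).

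**Figure D1:**
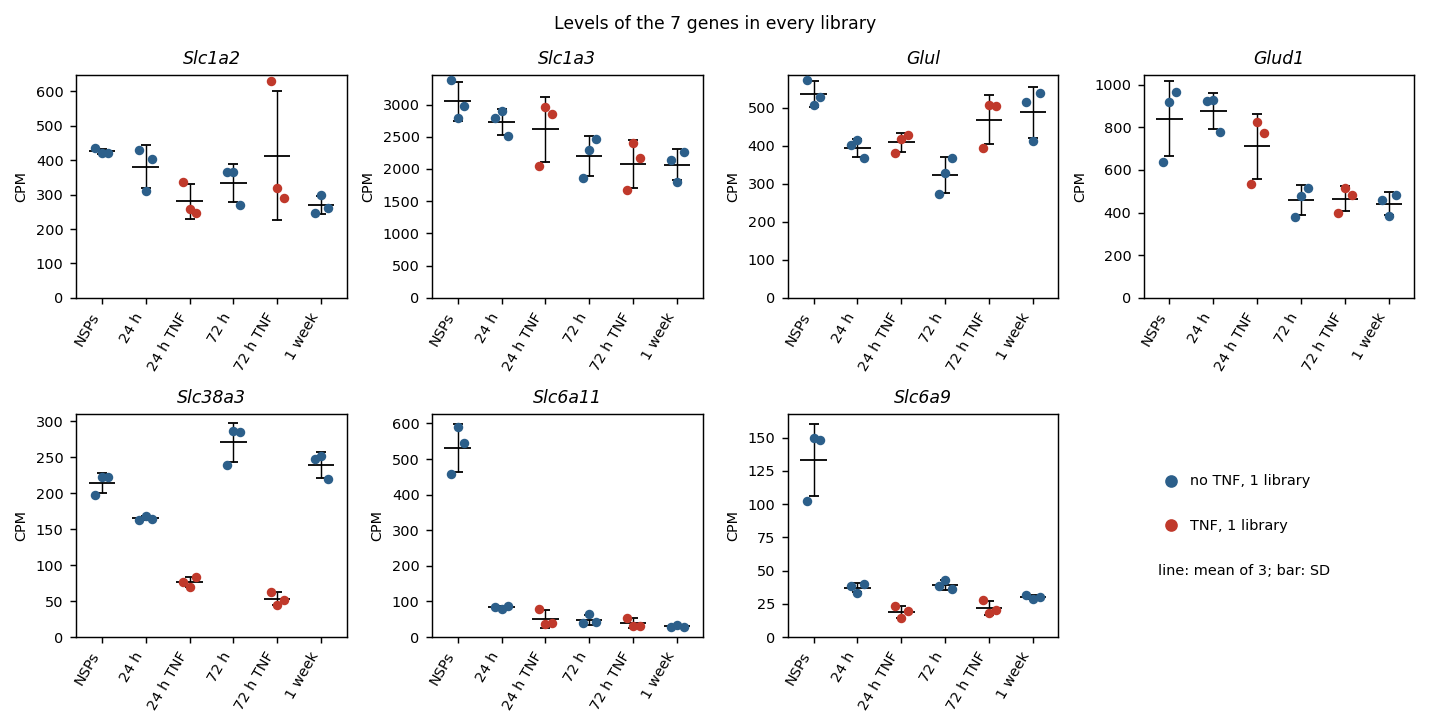
CPM (vertical axis, linear, from 0) of each of the 7 genes in the 3 libraries of each condition, blue without and red with TNF, with the mean as a line and the SD as a bar. Slc6a11 and Slc6a9 were highest in all 3 NSP libraries, and Slc38a3 was lower in all 6 TNF libraries than in any other library.

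Differentiation lowered more of the 7 genes than it raised. Against NSPs, edgeR's quasi-likelihood test (Benjamini-Hochberg adjusted p under 0.05 over all tested genes) called 4 of 7 lower and 0 higher at 24 h, where 25.5% of all tested genes were called lower and 27.2% higher. At 72 h it called 5 lower and 1 higher, against a background of 27.2% lower and 28.1% higher, and at 1 week 5 lower and 0 higher, against 29.1% and 29.6%. The median log2 fold change of the 7 was -0.38 at 24 h, -0.73 at 72 h and -0.66 at 1 week, and that of all tested genes 0.06, 0.05 and 0.06. The 2 genes that fell most at each time were the GABA and glycine carriers Slc6a11 and Slc6a9. Against the same NSP libraries, cells differentiated with TNF had 5 of 7 lower and 0 higher at 24 h (26.3% and 28.2% of all tested genes) and 5 lower and 0 higher at 72 h (30.1% and 31.7%), with medians of -0.60 and -0.85 against 0.06 and 0.09 for all genes. In the comparisons with 0 higher, no gene of the 7 was higher at an unadjusted p under 0.05 or by DESeq2. These comparisons share their control libraries and are not independent of each other.

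Between later times fewer genes differed. From 24 h to 72 h without TNF 2 of 7 were lower (Glud1 and Slc6a11) and 1 higher (Slc38a3), where 12.6% and 12.2% of tested genes were called lower and higher. From 72 h to 1 week Glul alone was called, as higher, with a background of 2.68% higher and 3.96% lower. From 24 h to 72 h with TNF 2 of 7 were lower (Glud1 and Slc38a3) and 0 higher, with a background of 7.93% lower and 5.38% higher. The median log2 fold change of the 7 was -0.29, -0.18 and -0.33 in these 3 comparisons, against -0.01, 0.00 and 0.00 for all tested genes. At an unadjusted p under 0.05, 1 gene was lower from 72 h to 1 week (Slc6a11) and 1 higher from 24 h to 72 h with TNF (Slc1a2), and DESeq2 called 0 in these directions.

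**Figure D2:**
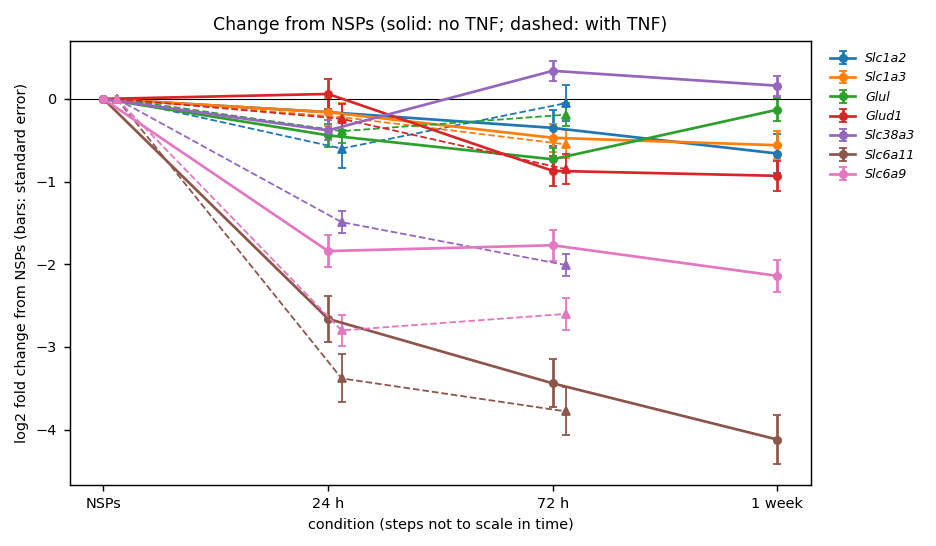
Fitted log2 fold change from NSPs (vertical axis) of each gene at 24 h, 72 h and 1 week, with standard errors as bars, solid with circles without TNF and dashed with triangles with TNF. The Slc6a11 line ends at -4.12 and the Slc6a9 line at -2.14, and the dashed Slc38a3 line reaches -2.01 at 72 h where the solid one is at 0.34.

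TNF lowered Slc38a3 and Slc6a9 at both times and raised Glul at 72 h. At 24 h 2 of 7 genes were called lower and 0 higher, where 1.32% of tested genes were called lower and 2.18% higher. At 72 h 2 were lower and 1 higher, where 5.21% were called lower and 4.35% higher. The median log2 fold change of the 7 with TNF was -0.44 at 24 h and -0.08 at 72 h, against -0.01 for all tested genes at either time. The test of whether the effect of TNF differed between 24 h and 72 h called 1 of 7 genes, Slc38a3, in the direction of a larger fall at 72 h, with a background of 0.324% in this direction and 0.135% in the other. At an unadjusted p under 0.05, 0 were higher with TNF at 24 h and 2 in the interaction (Slc1a2 and Glul), and DESeq2 called 0 of either. Without both TNF libraries numbered 1, an alternative chosen after seeing the data, 4 genes were lower at 24 h (Slc1a2 and Slc6a11 in addition), and at 72 h Slc6a11 was also lower.

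**Figure D3:**
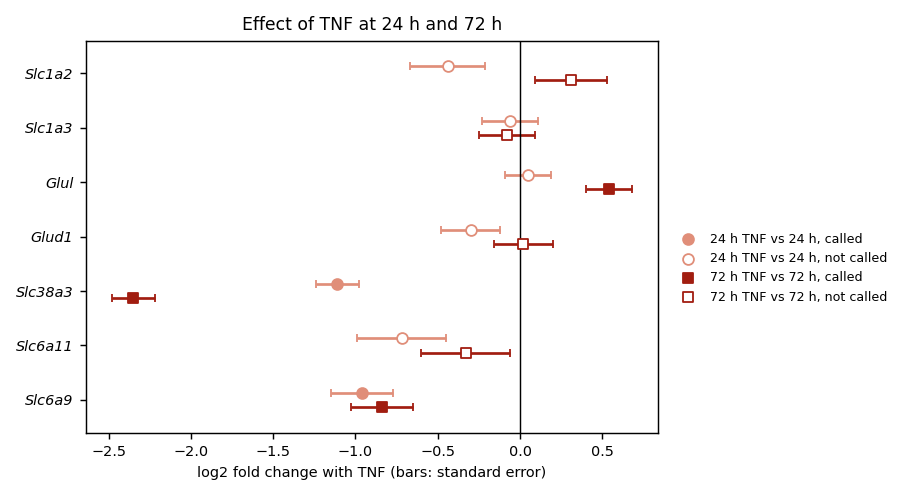
Fitted log2 fold change with TNF (horizontal axis, bars are standard errors) of each of the 7 genes at 24 h (circles) and 72 h (squares), filled where the adjusted p was under 0.05. Slc38a3 moved from -1.11 at 24 h to -2.35 at 72 h, while the points of Slc1a3 lie near 0 at both times.

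Slc38a3, the sodium-coupled glutamine carrier SNAT3, lies on chr9:107650634-107669530 (GRCm38, minus strand). It was the gene with the largest response to TNF among the 7. NSPs had 198, 222 and 222 CPM. At 24 h it was at 163, 168 and 164 CPM without TNF and at 76.5, 69.1 and 83.1 CPM with it. At 72 h it was at 239, 287 and 285 CPM without TNF and at 62.7, 45 and 51.7 CPM with it. The TNF libraries were below every untreated library of the same time, and below every other library of the series. With TNF it was 2.16-fold lower at 24 h (log2 fold change -1.11, SE 0.13, adjusted p = 3.48e-05) and 5.09-fold lower at 72 h (-2.35, SE 0.13, adjusted p = 2.72e-09). The effect was larger at 72 h by -1.23 on the log2 scale (interaction, SE 0.18, adjusted p = 0.00266). These 3 calls held in every refit (other filters, normalization, tool, block or libraries) and when a log2 fold change of at least 1 was required, with log2 fold changes from -1.18 to -1.06, from -2.49 to -2.24 and from -1.37 to -1.13.

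Without TNF, Slc38a3 fell and rose again. It was lower than in NSPs at 24 h (-0.38, SE 0.12, adjusted p = 0.017), higher than at 24 h at 72 h (0.71, SE 0.12, adjusted p = 0.000355) and higher than in NSPs at 72 h (0.34, SE 0.12, adjusted p = 0.0273). At 1 week, with 248, 252 and 219 CPM, it was not called against NSPs (0.16, SE 0.12) or 72 h (-0.18, SE 0.12). With TNF it continued to fall from 24 h to 72 h (-0.52, SE 0.13, adjusted p = 0.0103), and against NSPs it was lower by -1.49 at 24 h (SE 0.13, adjusted p = 2.97e-08) and -2.01 at 72 h (SE 0.13, adjusted p = 4.24e-10). The smaller calls depended on single libraries: that at 24 h against NSPs was lost without NSP replicate 2 or 3 or 24 h replicate 1 (adjusted p up to 0.0656), that at 72 h against NSPs without NSP replicate 1 or 72 h replicate 2 or 3 (up to 0.172), and that from 24 h to 72 h with TNF without 24 h TNF replicate 3 or 72 h TNF replicate 2 (up to 0.0943). Over the 18 libraries the 3 genes with the most similar log2 CPM were Rraga (Pearson r = 0.906), Paqr4 (0.902) and Pde9a (0.901), given as a description of libraries that share their conditions.

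Slc6a11, the GABA transporter of the GAT3 type, on chr6:114131241-114249952 (plus strand), had the largest change over differentiation. NSPs had 457, 590 and 545 CPM, and 24 h libraries 84, 79.5 and 88.6. At 72 h it was at 40.4, 64.6 and 41.4 CPM and at 1 week at 29.1, 33.6 and 28.5 CPM. Every differentiated library was below every NSP library. The gene was 6.32-fold lower than in NSPs at 24 h (-2.66, SE 0.28, adjusted p = 3.73e-07), 10.9-fold lower at 72 h (-3.44, SE 0.29, adjusted p = 1.02e-08) and 17.4-fold lower at 1 week (-4.12, SE 0.30, adjusted p = 1.23e-09). Most of the fall had thus taken place by 24 h. The further step from 24 h to 72 h (-0.78, SE 0.27, adjusted p = 0.0373) was lost when any 24 h library or 72 h replicate 1 or 3 was left out (adjusted p up to 0.141), and that from 72 h to 1 week did not pass (-0.68, SE 0.27, adjusted p = 0.151), although it did without a filter (adjusted p = 0.00182) and with only the groups compared (0.0416).

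With TNF, Slc6a11 was at 78.9, 35.5 and 38.3 CPM at 24 h and at 54.6, 30.4 and 31.2 CPM at 72 h. The first library of each time was the highest, and at 24 h all 3 were below the untreated libraries while at 72 h the groups overlapped. The difference with TNF was -0.72 at 24 h (SE 0.27, adjusted p = 0.18) and -0.33 at 72 h (SE 0.27, adjusted p = 0.461). Without the 2 libraries numbered 1 it was -1.19 (adjusted p = 0.000516) and -0.67 (adjusted p = 0.0204) with the remaining libraries. At 24 h, Slc6a11 was also called lower without TNF replicate 1 of that time alone, and with all libraries where no filter on low counts was used (-0.72, adjusted p = 0.00038). Against NSPs it was lower with TNF by -3.38 at 24 h (SE 0.29, adjusted p = 2.52e-08) and -3.78 at 72 h (SE 0.29, adjusted p = 4.28e-09), with or without these libraries.

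Slc6a9, the glycine transporter GLYT1 on chr4:117834506-117875198 (plus strand), fell with differentiation and again with TNF. It was at 102, 150 and 148 CPM in NSPs, and at 38.3, 33.5 and 39.9 CPM after 24 h. Levels were 38.7, 43.1 and 35.8 CPM at 72 h and 31.5, 28.8 and 30.2 CPM at 1 week. NSP libraries did not overlap with any differentiated library, and the differentiated groups without TNF lay close to each other. Against NSPs it was 3.58-fold lower at 24 h (-1.84, SE 0.19, adjusted p = 2.78e-07), 3.4-fold lower at 72 h (-1.77, SE 0.19, adjusted p = 2.37e-07) and 4.41-fold lower at 1 week (-2.14, SE 0.19, adjusted p = 1.94e-08). Between the differentiated times without TNF no step was called, with 0.07 (SE 0.18) from 24 h to 72 h and -0.38 (SE 0.18, adjusted p = 0.275) from 72 h to 1 week.

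With TNF, Slc6a9 was at 23.2, 14.2 and 19.9 CPM at 24 h and at 27.8, 18 and 20 CPM at 72 h. All 6 libraries were below all untreated libraries of the same time. The gene was 1.94-fold lower with TNF at 24 h (-0.96, SE 0.19, adjusted p = 0.00629) and 1.78-fold lower at 72 h (-0.84, SE 0.19, adjusted p = 0.00675), and the 2 effects differed by 0.12 (SE 0.26, adjusted p = 0.89). Both calls held in every refit, from -1.14 to -0.80 and from -1.05 to -0.71, and both were lost when a log2 fold change of at least 1 was required. Against NSPs it was lower with TNF by -2.80 at 24 h (SE 0.19, adjusted p = 2.17e-09) and by -2.60 at 72 h (SE 0.19, adjusted p = 2.54e-09). Exons of Slc6a9 overlap those of B4galt2 and Ccdc24 on the opposite strand, which had 8937 and 518 counts over all libraries against 14080 for Slc6a9. The counting step is not stated to have used strand, and reads of the shared bases may belong to either gene.

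Slc6a11 and Slc6a9 followed each other over the 18 libraries (Pearson r of log2 CPM = 0.905), the highest value among pairs of the 7 genes. Genes among the 3 most like Slc6a9 were Klhl5 (r = 0.954) and Gucy1b2 (0.95). The genes most like Slc6a11 were Rcor2 (0.978), Tle4 and Sema4b (both 0.972). These coefficients describe libraries of which the NSPs form a group apart, and carry no test. Other marker lists moved in the same interval: all 6 neural stem cell and proliferation markers were lower at 24 h than in NSPs (983 to 1100 against 2673 to 4005 CPM, summed), as were 3 of the 5 tested oligodendrocyte lineage markers (61.3 to 63.4 against 81.9 to 183 CPM). A further marker of that list, Mog, had at most 15 counts in every library and was not tested. Acta2, the 1 tested marker of the mesenchymal list, rose from 5.83 to 439 CPM (76-fold, adjusted p = 3.53e-07), and of the 6 astrocyte markers 3 were higher (Gfap, Aqp4 and Aldh1l1) and 1 lower (S100b). The other 5 mesenchymal markers had at most 15 counts in every library. The part of these shifts in the fall of Slc6a11 and Slc6a9 was not tested.

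Glul, which encodes glutamine synthetase (chr1:153899944-153909723, plus strand), fell during the first 72 h and was near its NSP level at 1 week. It was at 572, 506 and 529 CPM in NSPs, at 401, 415 and 368 CPM at 24 h and at 272, 328 and 368 CPM at 72 h. At 1 week it was at 514, 412 and 538 CPM. All libraries of 24 h and 72 h were below the NSP libraries, while those of 1 week overlapped them. It was 1.36-fold lower than in NSPs at 24 h (-0.44, SE 0.14, adjusted p = 0.0118) and 1.66-fold lower at 72 h (-0.73, SE 0.14, adjusted p = 0.00019), and differed by -0.13 at 1 week (SE 0.14, adjusted p = 0.413). The rise from 72 h to 1 week was 1.51-fold (0.60, SE 0.14, adjusted p = 0.0118), and its call was lost without 72 h replicate 1 or 2 or 1 week replicate 1 or 3 (adjusted p up to 0.0697). All 6 astrocyte markers fell over the same interval, so Glul moved against them. The step from 24 h to 72 h was -0.29 (SE 0.14, adjusted p = 0.137).

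With TNF, Glul was at 381, 417 and 427 CPM at 24 h and at 395, 506 and 505 CPM at 72 h. The 24 h libraries overlapped the untreated ones (0.05, SE 0.14, adjusted p = 0.93), and the 72 h libraries were all above them. At 72 h it was 1.45-fold higher with TNF (0.54, SE 0.14, adjusted p = 0.0178), while the interaction of TNF and time was 0.49 (SE 0.19, adjusted p = 0.394) and was not called. The call at 72 h was lost without 72 h replicate 1 or 2 or 72 h TNF replicate 2 or 3, with an adjusted p of up to 0.0731 and log2 fold changes from 0.43 to 0.65. Against NSPs Glul was lower by -0.39 at 24 h with TNF (SE 0.14, adjusted p = 0.0221), a call lost without NSP replicate 1 (adjusted p = 0.0611), and differed by -0.19 at 72 h (SE 0.14, adjusted p = 0.228). The genes most like it over the libraries were Hpcal1 (r = 0.872), Dusp6 (0.858) and Plk2 (0.835).

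Glud1, the mitochondrial glutamate dehydrogenase (chr14:34310727-34345265, plus strand), kept its level for 24 h and was lower afterwards. It was at 639, 917 and 965 CPM in NSPs and at 925, 927 and 778 CPM at 24 h (0.06, SE 0.18, adjusted p = 0.794). At 72 h it was at 381, 479 and 517 CPM and at 1 week at 461, 384 and 483 CPM. The groups of 72 h and 1 week lay below all earlier libraries without TNF. Glud1 was 1.91-fold lower at 72 h than at 24 h (-0.93, SE 0.18, adjusted p = 0.000937), 1.83-fold lower than in NSPs (-0.87, SE 0.18, adjusted p = 0.000516), and 1.9-fold lower than in NSPs at 1 week (-0.93, SE 0.18, adjusted p = 0.00028). From 72 h to 1 week it differed by -0.05 (SE 0.18).

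With TNF, Glud1 was at 535, 823 and 773 CPM at 24 h and at 399, 516 and 483 CPM at 72 h. Both groups overlapped the untreated libraries of their time, with differences of -0.30 at 24 h (SE 0.18, adjusted p = 0.518) and 0.02 at 72 h (SE 0.18, adjusted p = 0.957). The fall from 24 h to 72 h was also called with TNF (-0.61, SE 0.18, adjusted p = 0.0328), but not without 24 h TNF replicate 2 or 3 or 72 h TNF replicate 1 or 3 (adjusted p up to 0.209 over all alternatives). Against NSPs it was lower at 72 h with TNF (-0.85, SE 0.18, adjusted p = 0.00058) and differed by -0.24 at 24 h (SE 0.18, adjusted p = 0.268). The genes most like Glud1 were Osbpl8 (r = 0.948), Prkd1 (0.946) and Rims1 (0.941), and among the 7 it was closest to Slc1a3 (0.851).

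Slc1a3 (GLAST, chr15:8634124-8710764, minus strand) was the most abundant of the 7 throughout and was lower than in NSPs from 72 h on. It was at 3381, 2791 and 2977 CPM in NSPs and at 2798, 2895 and 2509 CPM at 24 h (-0.16, SE 0.17, adjusted p = 0.441). It was at 1861, 2287 and 2460 CPM at 72 h and at 2137, 1800 and 2264 CPM at 1 week. The libraries of 24 h overlapped those of NSPs, and the libraries of 72 h and 1 week were below both. Against NSPs it was 1.38-fold lower at 72 h (-0.47, SE 0.17, adjusted p = 0.0233) and 1.48-fold lower at 1 week (-0.56, SE 0.17, adjusted p = 0.00778). The call at 72 h was lost without NSP replicate 1 or 72 h replicate 1 (adjusted p up to 0.11). The steps from 24 h to 72 h (-0.31, SE 0.17) and from 72 h to 1 week (-0.09, SE 0.17) were not called.

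With TNF, Slc1a3 was at 2041, 2958 and 2858 CPM at 24 h and at 1676, 2399 and 2170 CPM at 72 h, and in both groups the first library was the lowest. Both groups overlapped the untreated ones, and the differences were -0.06 at 24 h (SE 0.17, adjusted p = 0.928) and -0.08 at 72 h (SE 0.17, adjusted p = 0.799). Against NSPs it differed by -0.22 at 24 h with TNF (SE 0.17, adjusted p = 0.276) and was lower at 72 h (-0.55, SE 0.17, adjusted p = 0.00818), a call lost without 72 h TNF replicate 1 (adjusted p = 0.0595). The genes most like it were Dynlt1a (r = 0.946), Rbm3 (0.941) and Rhobtb3 (0.934).

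Slc1a2 (GLT1, chr2:102658659-102790784, plus strand), the main glutamate carrier of mature forebrain astrocytes, was not called higher than in NSPs at any time. NSPs had 435, 422 and 422 CPM. It was at 429, 310 and 405 CPM at 24 h, at 366, 366 and 270 CPM at 72 h and at 247, 298 and 262 CPM at 1 week. The libraries of 72 h and 1 week were below those of NSPs, and those of 24 h overlapped them. Against NSPs it differed by -0.16 at 24 h (SE 0.22, adjusted p = 0.566) and by -0.35 at 72 h (SE 0.22, adjusted p = 0.194), and it was 1.58-fold lower at 1 week (-0.66, SE 0.23, adjusted p = 0.0172). The call at 1 week was lost without 1 week replicate 1 and under a filter that asks for 10 or more counts in all libraries (adjusted p up to 0.0587). The steps between differentiated times were -0.19 (SE 0.22) and -0.31 (SE 0.23) and were not called.

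With TNF, Slc1a2 was at 338, 257 and 246 CPM at 24 h and at 629, 320 and 290 CPM at 72 h. The first 72 h TNF library held the highest Slc1a2 level of all 18, and both groups overlapped their untreated libraries. The difference with TNF was -0.44 at 24 h (SE 0.23, adjusted p = 0.411) and 0.31 at 72 h (SE 0.22, adjusted p = 0.422), with an interaction of 0.75 (SE 0.32, adjusted p = 0.438), which passed without a filter (adjusted p = 0.0412). Without the 2 libraries numbered 1, Slc1a2 was lower with TNF at 24 h (-0.60, adjusted p = 0.0345) and differed by -0.14 at 72 h (adjusted p = 0.643). Against NSPs it was lower at 24 h with TNF (-0.60, SE 0.23, adjusted p = 0.0306), a call lost when any NSP library or 24 h TNF replicate 2 or 3 was left out (adjusted p up to 0.1). At 72 h with TNF it differed from NSPs by -0.05 (SE 0.22, adjusted p = 0.869), and without the libraries numbered 1 by -0.48 (adjusted p = 0.0125). From 24 h to 72 h with TNF the step of 0.56 (SE 0.23, adjusted p = 0.115) became a call without 24 h TNF replicate 1 or 72 h TNF replicate 3, and without a filter (adjusted p = 0.00331). The genes most like it, at lower coefficients than for the others, were Rnf157 (r = 0.864), Stau1 (0.843) and Nova1 (0.82).

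Some of the astrocyte markers also changed with TNF, mainly at 72 h. With TNF at 24 h 1 of the 6 markers was lower (Aldoc) and 0 higher, and at 72 h 3 were lower (Gfap, Aldoc and S100b) and 0 higher. Gfap fell by 2.31 on the log2 scale at 72 h (SE 0.56, adjusted p = 0.0128), beside the fall of Slc38a3 and Slc6a9 and the rise of Glul in the same libraries. The summed marker level at 72 h was 3469 to 5492 CPM without and 1026 to 2583 CPM with TNF. The part of these shifts in the results for the 7 genes was not tested. Without the 2 TNF libraries numbered 1, the change of Slc38a3 with TNF at 72 h was -2.49 (SE 0.14), against -2.35 with them. That of Slc6a9 was -1.05 (SE 0.18), against -0.84 with them. The 72 h library left out had the highest marker sum of its group (2583 against 1129 and 1026 CPM). This refit therefore cannot separate the 2 genes from the markers.

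Promoter sequences of 6 of the 7 genes were taken from a set of RefSeq promoters (GRCm38.p6), as 250 bases before and 50 after each start in that set. The 6 genes have 8 such promoters, 3 of them for Slc6a9, and Slc38a3 had no entry in the set of promoters used. The only Slc1a2 window (chr2:102706188-102706487) lies inside the gene, which begins at chr2:102658659. The bases at that first start of Slc1a2 were not searched. Both strands were searched for 4 motifs: GGNNTTTCC for NF-kB (in 5.82% of 32851 promoters), TTCNNNGAA for STAT factors (8.3%), TGANTCA for AP-1 (7.81%) and TGACGTCA for cyclic AMP responsive factors (1.79%). The motifs can overlap in part, and a match is a description of the letters only. A single match was found, of the STAT letters in the promoter of Slc1a3, and it is shown in capitals. The 250 bases upstream of the start are given for Slc1a3 (chr15:8710808-8711057, minus strand), which holds the match, and for Slc6a11 (chr6:114130991-114131240, plus strand), which changed most, both from 5′ to 3′.
Slc1a3: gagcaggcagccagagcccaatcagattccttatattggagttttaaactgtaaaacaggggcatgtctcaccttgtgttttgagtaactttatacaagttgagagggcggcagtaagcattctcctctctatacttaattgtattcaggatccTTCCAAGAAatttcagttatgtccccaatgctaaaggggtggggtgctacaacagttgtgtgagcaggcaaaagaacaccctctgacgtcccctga
Slc6a11: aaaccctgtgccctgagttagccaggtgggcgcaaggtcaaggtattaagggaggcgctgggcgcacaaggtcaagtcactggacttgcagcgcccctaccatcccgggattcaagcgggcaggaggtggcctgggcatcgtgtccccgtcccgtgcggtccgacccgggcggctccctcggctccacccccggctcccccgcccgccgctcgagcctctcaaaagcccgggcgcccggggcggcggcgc
The upstream bases differ in composition, with 44.8% G or C in Slc1a3 and 71.2% in Slc6a11, where the median of all promoters is 52.4%. The Slc1a2 window inside the gene had 44.8% as well, Slc6a9 60.4% to 60.8% over its starts, Glul 64.8% and Glud1 82%.

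The 7 genes were set beside 56 other genes of the pathway in 6 lists, of which 45 passed the filter. Of 6 other GABA and glycine carriers 5 were too low to test. At 24 h against NSPs, 9 of the 45 rose and 17 fell (median log2 fold change -0.26). Of all tested genes 27.2% rose and 25.5% fell, with a median of 0.06. Among glutamine and neutral amino acid carriers, Slc38a1 (SNAT1) rose (1.71, adjusted p = 1.13e-05) where Slc1a4 and Slc1a5 (ASCT1 and ASCT2) fell (-2.18 and -2.20). Among glutamate carriers, Slc7a11, the cystine-glutamate exchanger xCT, fell (-2.07, adjusted p = 0.00937), as did the mitochondrial carrier Slc25a22 (-0.85), while the vesicular carrier Slc17a8 (VGLUT3) rose (1.28) from a mean of 1.6 to one of 3.87 CPM. Among enzymes, pyruvate carboxylase (Pcx) rose (2.00) and Gad1, which makes GABA, and the glutaminase Gls2 fell (-1.35 and -0.80). The receptor genes Gria1 (3.50) and Gabra4 (1.68) rose while Grm3 (-2.61) and Gabrg1 (-0.83) fell. Among subunits of the sodium pump, which maintains the gradient that drives the carriers, Atp1b2 (2.24) rose. Of the 26 calls 21 held in every refit, and those of Slc25a22 and Gls2 did not, being lost without NSP replicate 1 or 2 or 24 h replicate 1 or 2 among others.

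From 24 h to 72 h 7 of the 45 were higher and 14 lower (median 0.01). Of all tested genes 12.2% were higher and 12.6% lower, with a median of -0.01. Ornithine aminotransferase (Oat) rose (1.31, adjusted p = 2.37e-05), as did the carrier chain Slc3a2 (0.70), Gria1 (1.61), Gabrb1 (1.05), Fxyd1 (3.54) and Atp1b1 (0.54). Grm5 (-2.31), Gria2 (-2.27), Slc17a8 (-1.71), Slc7a5 (-1.26), the aspartate aminotransferase Got1 (-1.25), Slc1a4 (-1.20), Slc1a1 (-1.19) and Pcx (-0.89) fell. Of the 21 calls 12 held in every refit, and those of Atp1b1, Gabrb1, Pcx, Slc1a1 and Slc7a5 were among the others, each lost without 1 or more of the 24 h and 72 h libraries. From 72 h to 1 week 3 were higher (Slc17a8, 1.66, Slc1a4, 1.03, and Aldh4a1, 0.58) and 8 lower (median -0.08), among them Grm5 (-2.96), Gabra4 (-1.64) and Oat (-0.87). Over all tested genes 2.68% were higher and 3.96% lower in this step (median 0.00). None of the 3 higher calls held without each library in turn, and 6 of the 11 calls held in every refit.

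With TNF 2 of the 45 genes were higher and 5 lower at 24 h (median -0.12), and 3 higher and 9 lower at 72 h (median -0.08). Of all tested genes 2.18% were higher and 1.32% lower at 24 h, and 4.35% and 5.21% at 72 h. Their median was -0.01 at either time. The alanine aminotransferase Gpt2, which makes glutamate from alanine, was lower at both times, from 431, 451 and 395 CPM to 150, 235 and 239 CPM at 24 h (-1.03, SE 0.17, adjusted p = 0.00164) and from 210, 276 and 293 CPM to 135, 126 and 134 CPM at 72 h (-0.98, SE 0.17, adjusted p = 0.00106). Aldh5a1, the last enzyme of GABA breakdown, was lower by -0.70 (adjusted p = 0.00855) and -0.85 (adjusted p = 0.000638). Gabbr2, a subunit of the GABA-B receptor, was lower by -1.90 (adjusted p = 0.00487) and -3.20 (adjusted p = 9.89e-05), from 6.55 to 0.704 CPM on average at 72 h. Gad1 was higher by 1.65 (adjusted p = 0.000922) and 1.40 (adjusted p = 0.00151), at 14.1 ± 6.63 CPM (SD, n = 3) with TNF at 24 h and 11.7 ± 1.9 CPM at 72 h against 4.47 ± 0.532 and 4.43 ± 0.364 CPM without. These 4 genes kept their calls at both times in every refit; a minimum log2 fold change was not applied to them.

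At 72 h the pump subunit Atp1b1 (-0.79, adjusted p = 0.00989), the GABA transaminase Abat (-0.76, adjusted p = 0.017) and Oat (-0.97, adjusted p = 0.00112) were also lower. Slc17a8 was lower at both times (-1.78 and -2.16) at means of 1.14 and 0.257 CPM with TNF, with 1 to 8 counts per library at 72 h. Pcx (1.04, adjusted p = 0.0234) and Grm5 (0.77, adjusted p = 0.0317) were higher at 72 h. The call of Oat held in every refit. The others named here were each lost without at least 1 library: Atp1b1 without 72 h replicate 3 or 72 h TNF replicate 3, Abat without 72 h replicate 2 or 3 or 72 h TNF replicate 1, Slc17a8 at 24 h without 24 h replicate 3 or 24 h TNF replicate 1 or 3 and at 72 h without 72 h TNF replicate 1, and Pcx and Grm5 without most of the libraries compared. Oat was the 1 gene of the 45 for which the effect of TNF differed between times (-1.13, SE 0.24, adjusted p = 0.0447), and its call was lost in 16 of 21 refits. Of all tested genes 0.324% were called in this direction. None of the 8 tested glutamine and neutral amino acid carriers, to which Slc38a3 is closest by function, was called with TNF at 24 h or 72 h by edgeR. At an unadjusted p under 0.05, 1 was lower at 24 h, and 1 was lower and 1 higher at 72 h. DESeq2 called 1 at 24 h (Slc7a5, lower) and 0 at 72 h. Slc7a5 went from 49 ± 4.99 to 22.9 ± 4.28 CPM (SD, n = 3) with TNF at 24 h. Slc38a3 went from 165 to 76.2 CPM there. At 72 h Slc7a5 was at 20.5 ± 4.03 CPM without and 17.3 ± 14.8 CPM with TNF. The median log2 fold change of the 8 was 0.11 at 24 h and 0.01 at 72 h. Background shares reached at most 5.21% per direction, so 0 calls among 8 genes do not by themselves set Slc38a3 apart.

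**Figure D4:**
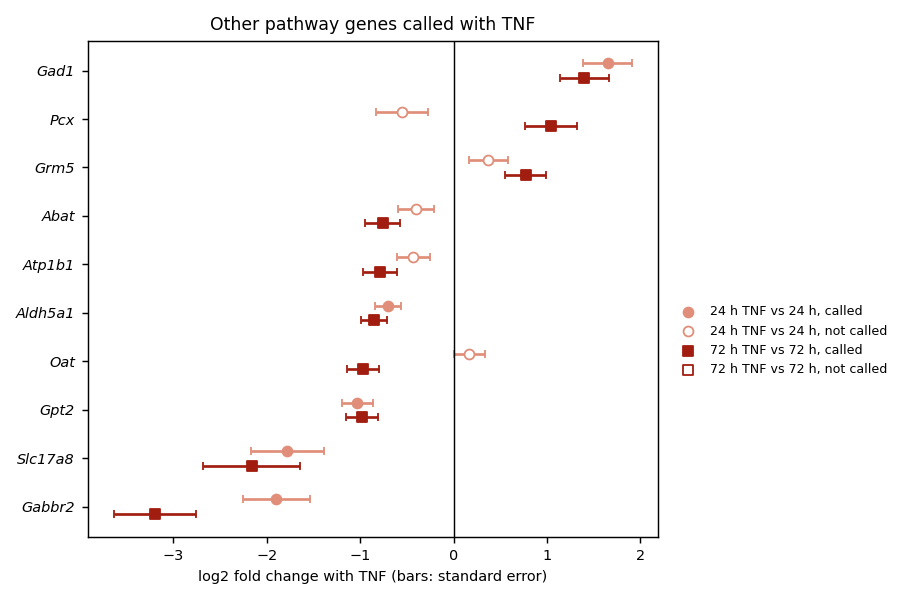
Fitted log2 fold change with TNF (horizontal axis, bars are standard errors) of 10 other pathway genes called at 24 h (circles) or 72 h (squares), filled where called. Gabbr2 lies lowest at -3.20 and Gad1 highest at 1.65, and Oat is near 0 at 24 h and at -0.97 at 72 h.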

How the data were processed

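The authors used FastQC for read quality, Trim Galore for trimming, STAR for alignment (per the labels to mm10), Samtools for sorting and featureCounts for counting reads per gene, and deposited the raw counts of the 18 libraries without normalization. Libraries were made from total RNA depleted of ribosomal RNA, with a kit that keeps strand. The study reports a wide range of RNA quality numbers and does not tie them to single libraries. Their part in the spread between libraries was not tested. Tool versions, the strand setting of the counting and the treatment of reads with several possible genes are not given in the sources used here. Groups came from the sample labels. The column of the third 72 h library carries another replicate number than its label and was matched by its index. Gene names, positions and lengths came from GENCODE M21, in which 54809 of 54838 identifiers were found.

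From the counts, TMM factors were computed and edgeR's quasi-likelihood test (edgeR 4.0.16, limma 3.58.1, R 4.3.3) was fitted over all 18 libraries, with 1 mean per condition, to the 20067 genes that passed edgeR's filter by condition, after a test on simulated data. A gene is called where the Benjamini-Hochberg adjusted p is under 0.05 over all tested genes. The biological coefficient of variation was 0.18. CPM uses TMM library sizes, log2 CPM a prior count of 2, and TPM the union of exons. Depth limits are counting error only. No replicate pair agreed within sampling noise (lowest chi-square divided by its degrees of freedom 4.08, highest 62.7), so each library was counted as 1 replicate.

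The 7 genes and all lists were chosen with earlier results of these data known, as was the rule for genes named: all 7, every other listed gene called with TNF or in the interaction, and up to 2 per list and direction in 3 steps of differentiation with at least 1 CPM, plus the 3 genes with the highest correlation to each of the 7 and Nfkbia. Some genes that this rule takes are not reported here. Alternatives were DESeq2 1.42.0, RLE normalization, no filter, at least 5 counts in total or 10 in every library, only the groups compared, a log2 fold change of at least 1, a replicate block, and each library left out in turn. The labels number replicates from 1 to 3 in every condition without saying that a number marks a shared source. Deviations of libraries with the same number correlated above 0.1 in every pair only between 24 h and 72 h with TNF (0.291, 0.255 and 0.266), where the block changed no call among the 7 genes. Summaries and figures used Python 3.11.15, pandas 2.3.3, numpy 2.4.6 and matplotlib 3.10.9.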

Additional observations from a re-analysis of the deposited data

Results flagged for a closer look

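The effect of TNF differed between the 2 times for 1 of the 7 genes and for 1 of the 45 other pathway genes, by the interaction term of the edgeR fit. For Slc38a3 the interaction was -1.23 on the log2 scale (SE 0.18, adjusted p = 0.00266), with a fall of 1.11 at 24 h and of 2.35 at 72 h. For Oat it was -1.13 (SE 0.24, adjusted p = 0.0447): the 72 h libraries were at 327, 471 and 514 CPM without and 232, 224 and 215 CPM with TNF, and the 24 h libraries at 175, 203 and 152 CPM without and 243, 172 and 179 CPM with TNF. The call of Slc38a3 held in all 21 refits, with adjusted p up to 0.0358, and that of Oat was lost in 16 of 21, with adjusted p up to 0.274.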

How the results depend on the processing

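Of 1162 log2 fold changes of the 7 genes in refits, 1105 stayed on the same side of the threshold in the same direction, 44 lost a call, 13 gained one and 0 reversed a call. Requiring a log2 fold change of at least 1 left 2 of the 7 genes at 24 h, 72 h and 1 week against NSPs, 3 at 24 h and 72 h with TNF against NSPs, 0 from 24 h to 72 h, 0 from 72 h to 1 week, 0 from 24 h to 72 h with TNF, and 1 with TNF at 24 h and at 72 h; by construction it keeps only larger changes. Without a filter 2 genes were called from 72 h to 1 week and 2 in the interaction, and with only the groups compared 2 from 72 h to 1 week and 0 from 24 h to 72 h with TNF; the cause was not tested. Leaving out 1 library gave 3 to 5 calls at 24 h with TNF against NSPs (3 without NSP replicate 1), 0 to 1 from 72 h to 1 week and 0 to 3 from 24 h to 72 h with TNF (0 without 24 h TNF replicate 3). Without both TNF libraries numbered 1, 4 genes were called with TNF at 24 h. The replicate block gave the same 4, 6, 5, 5, 5, 3, 1, 2, 2, 3 and 1 calls among the 7 genes as the fit without it, in the order of the comparisons with NSPs (24 h, 72 h, 1 week, 24 h TNF, 72 h TNF), between times and with TNF, and changed no call of these genes; with 72 h replicate 3 left unpaired it lost Slc38a3 at 72 h against NSPs and Slc6a11 from 24 h to 72 h. Among the other pathway genes the interaction had 1 call, 0 with the replicate block and 2 by DESeq2. RLE and DESeq2 scaling moved the median of the 7 by at most 0.04 on the log2 scale. Per longest transcript, NSP levels were 1652 TPM for Slc1a3, 163 for Slc38a3, 92 for Slc6a9 and 88.3 for Slc1a2, which reversed the order of the last 2. The number of libraries, 3 per condition, limits what small changes could be called.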
